A study of Mus musculus with 6 samples.

Results

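The 44 genes described here are homeobox genes, many of which mark regions of the nervous system, from the dorsal telencephalon to the spinal cord. Others are broadly expressed or divergent homeobox genes. They were chosen by symbol from a list of 45 names, and 44 of these had a row in a table of 23016 entries; Onecut1 had 2 rows, which gives 45 entries, and Nkx6-2 is not analysed here. The libraries came from cerebral cortex of 3 Fezf2 KO (Fezf2-/-) and 3 wild type (Fezf2+/+) mouse pups at postnatal day 0, all offspring of heterozygous parents, with 1 library of total RNA per brain. Replicates 1 and 2 were littermates (litter m1) in both genotypes, and replicate 3 was of litter m2. The sources used here give neither the strain nor which part of Fezf2 is deleted. The Fezf2 protein is a zinc finger regulator used by corticospinal and other deep-layer neurons, and the comparison asks which transcripts differ when it is missing.

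Homeobox genes encode proteins that bind DNA through a homeodomain, often at sites built around a TAAT core. In the embryo, combinations of them divide the neural tube along its length and from its dorsal to its ventral side, and many remain active in neurons born in those regions. In the cortex, Emx and Otx genes belong to the dorsal telencephalon itself, whereas En, Phox2, Tlx or Nkx6 genes are used in the midbrain, hindbrain or spinal cord.

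Of the 25 members with enough reads to test, 2 rose in Fezf2 KO cortex and 0 fell: Msx3, a homeobox gene of the dorsal neural tube, and Otx1, a homeobox gene of the forebrain and of deep-layer cortical neurons. The other 23 tested members did not pass. Among members lower in Fezf2 KO cortex, limma passed 0, 1 (Meis1) had an unadjusted p under 0.05, and edgeR and DESeq2 each passed 0. DESeq2 passed 3 members higher, the third being Zfhx4, where it called 1.38% of all entries higher and 2.3% in either direction; edgeR passed the same 2 as limma and called 0.689%. Over all 17557 entries tested, 0.404% were called higher, 0.308% lower and 0.712% in either direction (limma, adjusted p under 0.05). The median log2 change was 0.14 over the 25 tested members and 0.00 over all entries tested. Of all 44 members, 20 were near zero in wild type cortex, with a mean below 10 normalised reads, and 2 of these 20 were among those tested.

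Values are numbers of reads on a gene after division by the size factor of the library, here called normalised reads. Each change is the mean log2 of normalised reads plus 1 in Fezf2 KO cortex minus that in wild type cortex, which understates the change of genes with few reads. Before that division, the reads of all entries summed to 44978380 to 52872577 per library. Such a sum is not the number of reads sequenced, and reads shared by entries add to it more than once. Fezf2 itself had 1989, 1377 and 1533 normalised reads in the Fezf2 KO libraries, against 5030, 5928 and 5396 in the wild type libraries (log2 -1.75, SE 0.129, limma adjusted p = 0.000832). The 8 markers of cortical excitatory neurons were all detected, with summed values of 100521 to 108471 in Fezf2 KO cortex and 103199 to 108458 in wild type cortex.

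A few libraries stood apart in markers of tissue that borders the cortex. The 12 meningeal markers summed to 4251, 3382 and 3153 normalised reads in Fezf2 KO libraries 1, 2 and 3, against 13868, 3710 and 2471 in wild type libraries 1, 2 and 3, and wild type 1 had the highest value of each of the 12. Fezf2 KO 1 had the highest value of 7 of 8 choroid plexus markers, with a sum of 9810, against 146 and 140 in Fezf2 KO 2 and 3 and 76.5 to 157 in wild type cortex. The 12 striatal markers summed to 3659, 9384 and 5257 in Fezf2 KO libraries 1, 2 and 3, against 12866, 10063 and 9044 in wild type libraries 1, 2 and 3. The interneuron marker sums did not overlap, at 61083 to 64480 in Fezf2 KO cortex and 52565 to 55087 in wild type cortex, over 12 genes in 13 entries. Of these, Npy (log2 0.69, SE 0.112, limma adjusted p = 0.0402; edgeR 0.0426, litter block 0.0686) and Sp8 (log2 0.43, SE 0.073, limma adjusted p = 0.0457; edgeR 0.0600, litter block 0.0339) rose in limma and 0 fell. The part of interneurons in the values of Msx3 and Otx1 was not tested. In bulk tissue, fewer cells of a type and less RNA per cell cannot be told apart.

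Msx3 stands with Msx1 and Msx2 in a family of 3 related genes of the dorsal neural tube and the head mesenchyme, and the 3 differed in level and in change. The windows around their annotated starts are shown because Msx3 changed while its relatives did not pass or had too few reads. Each runs from 250 bases before to 50 bases after the start, from RefSeq, build GRCm38.p6, 5′ to 3′ on the strand of the gene, and capitals mark the CCAAT box (CCAAT, or ATTGG on the other strand). The Msx3 window is chr7:140049039-140049338, that of Msx1 is chr5:37824536-37824835, and that of Msx2 is chr13:53472731-53473030, all on the minus strand.
Msx3: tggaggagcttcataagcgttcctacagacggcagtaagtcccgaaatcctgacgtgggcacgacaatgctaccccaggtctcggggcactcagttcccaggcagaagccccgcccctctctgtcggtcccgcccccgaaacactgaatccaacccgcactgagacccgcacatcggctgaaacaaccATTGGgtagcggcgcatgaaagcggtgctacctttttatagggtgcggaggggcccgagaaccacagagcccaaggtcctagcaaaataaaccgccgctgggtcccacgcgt
Msx1: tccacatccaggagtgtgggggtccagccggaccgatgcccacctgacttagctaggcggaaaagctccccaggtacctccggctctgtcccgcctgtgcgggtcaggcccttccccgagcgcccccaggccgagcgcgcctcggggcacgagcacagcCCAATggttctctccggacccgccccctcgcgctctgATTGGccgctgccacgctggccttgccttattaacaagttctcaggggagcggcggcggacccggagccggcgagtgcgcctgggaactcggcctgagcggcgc
Msx2: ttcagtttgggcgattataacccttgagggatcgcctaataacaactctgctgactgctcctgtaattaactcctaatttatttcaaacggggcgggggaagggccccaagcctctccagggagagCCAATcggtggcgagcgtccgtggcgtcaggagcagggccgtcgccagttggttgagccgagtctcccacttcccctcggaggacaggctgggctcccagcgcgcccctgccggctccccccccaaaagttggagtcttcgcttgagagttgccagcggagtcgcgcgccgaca

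The Msx3 window held 1 match to CCAAT, 0 to the homeodomain core TAAT and 1 to TATAAA, counted on both strands. The Msx1 window held 2 matches to CCAAT, 1 to TAAT and 0 to TATAAA, and the Msx2 window held 1, 5 and 0. Of 32851 windows of that length around annotated starts, 37.4% held CCAAT, 58.0% TAAT and 13.6% TATAAA, so each of these motifs is common in such windows. A match describes the letters in the window only.

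Among the roof plate and dorsal midline genes, Msx3 had 1411, 915 and 1062 normalised reads in Fezf2 KO libraries 1, 2 and 3, against 451, 457 and 539 in wild type libraries 1, 2 and 3. All Fezf2 KO libraries lay above all wild type libraries, and the lowest Fezf2 KO value was well above the highest wild type value. Msx3 rose 2.31-fold (log2 1.21, SE 0.155, limma adjusted p = 0.0130; edgeR 0.0152, DESeq2 1.3e-11). The log2 difference was 1.32 within litter m1 and 0.98 within litter m2. The call was lost without wild type 1 (limma adjusted p = 0.0514), without wild type 2 (0.0556) and without Fezf2 KO 3 (0.0589). It held when wild type 1 and Fezf2 KO 1, the libraries high in meningeal and choroid plexus markers, were both left out (log2 0.99, limma adjusted p = 0.0482).

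Msx1, a gene of the roof plate and of head and limb mesenchyme, had 120, 70.1 and 76.8 normalised reads in the Fezf2 KO libraries, against 191, 48.0 and 38.7 in the wild type libraries. Wild type 1 held the highest value, and the genotypes overlapped (log2 0.28, SE 0.542, limma adjusted p = 0.949). An assembled transcript named linc-Msx1-AS was likewise highest in wild type 1, with 57.7, 32.3 and 37.1 in Fezf2 KO cortex and 71.1, 21.8 and 20.6 in wild type cortex. Whether the libraries kept strand is not stated, so reads of overlapping and antisense transcripts cannot be told apart. Without wild type 1 the log2 change of Msx1 was 0.99 (limma adjusted p = 0.309), and without wild type 3 it was -0.15 (limma adjusted p = 0.979).

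Lmx1a, needed for the roof plate and active in the cortical hem, had 25, 17 and 4 reads in Fezf2 KO libraries 1, 2 and 3, against 21, 4 and 3 in wild type libraries 1, 2 and 3. Its highest values stood in Fezf2 KO 1, high in choroid plexus markers, and in wild type 1, high in meningeal markers, but Fezf2 KO 2 was high in neither. The part of these tissues in the values of Msx1 and Lmx1a was not tested. Msx2 and Lmx1b, a relative of Lmx1a used in the midbrain and hindbrain, stayed at 4 to 9 and 0 to 6 reads per library and were not tested.

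**Figure D1:**
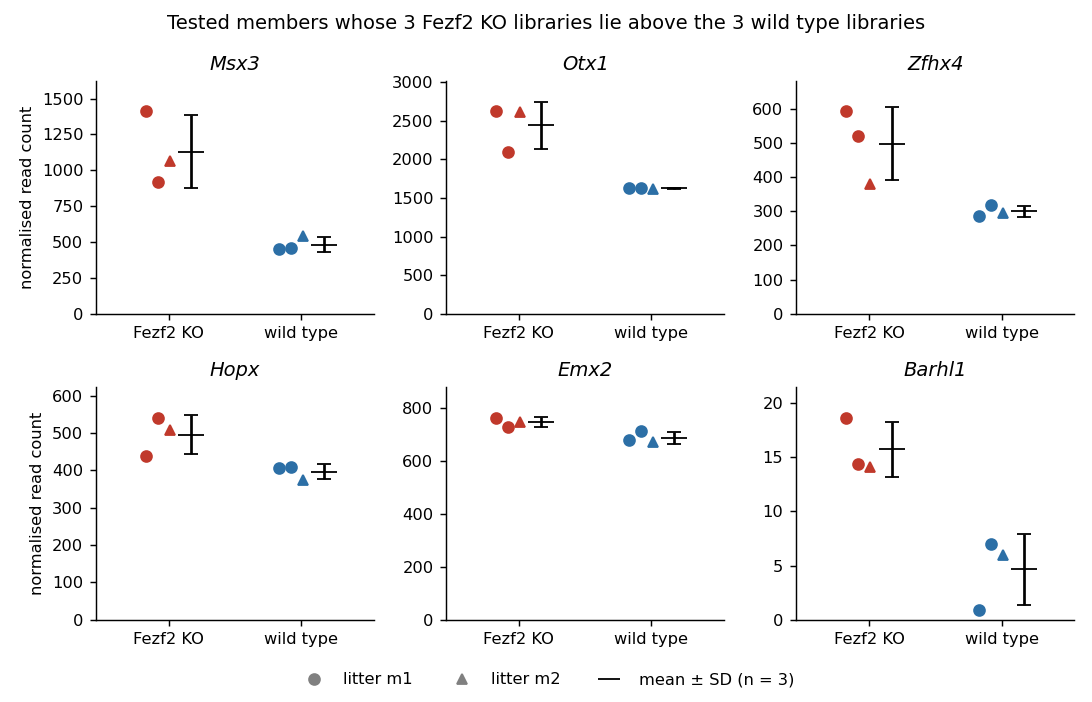
Normalised read counts (y axis, from 0) of the 6 tested members whose 3 Fezf2 KO libraries lie above the 3 wild type libraries, with 1 point per library, circles for litter m1, triangles for litter m2, and the mean ± SD beside them. Msx3 runs from 915 to 1411 in Fezf2 KO cortex and from 451 to 539 in wild type cortex, whereas Emx2 runs from 726 to 763 and from 669 to 712.

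Of the dorsal telencephalon and anterior forebrain genes, 4 of 5 were tested, 1 rose, 0 fell and 3 did not pass. Otx1 had 2622, 2092 and 2612 normalised reads in the Fezf2 KO libraries, against 1629, 1631 and 1616 in the wild type libraries. The wild type libraries were close together, with an SD of 8.34, and the Fezf2 KO libraries were spread over a wider range, with an SD of 303. Otx1 rose 1.49-fold (log2 0.58, SE 0.091, limma adjusted p = 0.0350; edgeR 0.0349, DESeq2 8.49e-07). Its log2 difference was 0.52 within litter m1 and 0.69 within litter m2. The call was lost without wild type 1, 2 or 3 (limma adjusted p = 0.106, 0.117 and 0.126) and without Fezf2 KO 1 or 3 (0.0885 and 0.141). Without both wild type 1 and Fezf2 KO 1 it was 0.202.

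Emx1 and Emx2, which mark the developing dorsal telencephalon, differed little between genotypes. Emx1 had 4774, 3741 and 4382 normalised reads in the Fezf2 KO libraries, against 3836, 4486 and 4278 in the wild type libraries, and the ranges overlapped (log2 0.03, SE 0.096, limma adjusted p = 0.974). Emx2 had 763, 726 and 746 in the Fezf2 KO libraries, against 680, 712 and 669 in the wild type libraries. These did not overlap, yet the change was small and did not pass (log2 0.12, SE 0.070, limma adjusted p = 0.728). Vax1, a gene of the ventral forebrain and optic stalk, averaged 179 ± 9.08 in Fezf2 KO cortex and 180 ± 19.9 in wild type cortex (SD, n = 3 each). Six6, of the eye and pituitary, had at most 2 reads in any library.

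Expressed per kilobase of annotated exon, Emx1 had the highest level of the members, with a mean of 2754 normalised reads per kilobase in Fezf2 KO cortex and 2691 in wild type cortex. Pou6f1, a POU homeobox gene of brain neurons, followed with 2480 and 2258, and Meis3, a TALE-class partner of other homeodomain proteins, with 1903 and 2035. Otx1 stood at 876 per kilobase in Fezf2 KO cortex and 583 in wild type cortex. Pbx2, another TALE-class cofactor, stood at 775 and 766, so Otx1 was above Pbx2 in Fezf2 KO cortex and below it in wild type cortex. Msx3 stood at 479 and 205, and Hopx at 327 and 261.

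**Figure D2:**
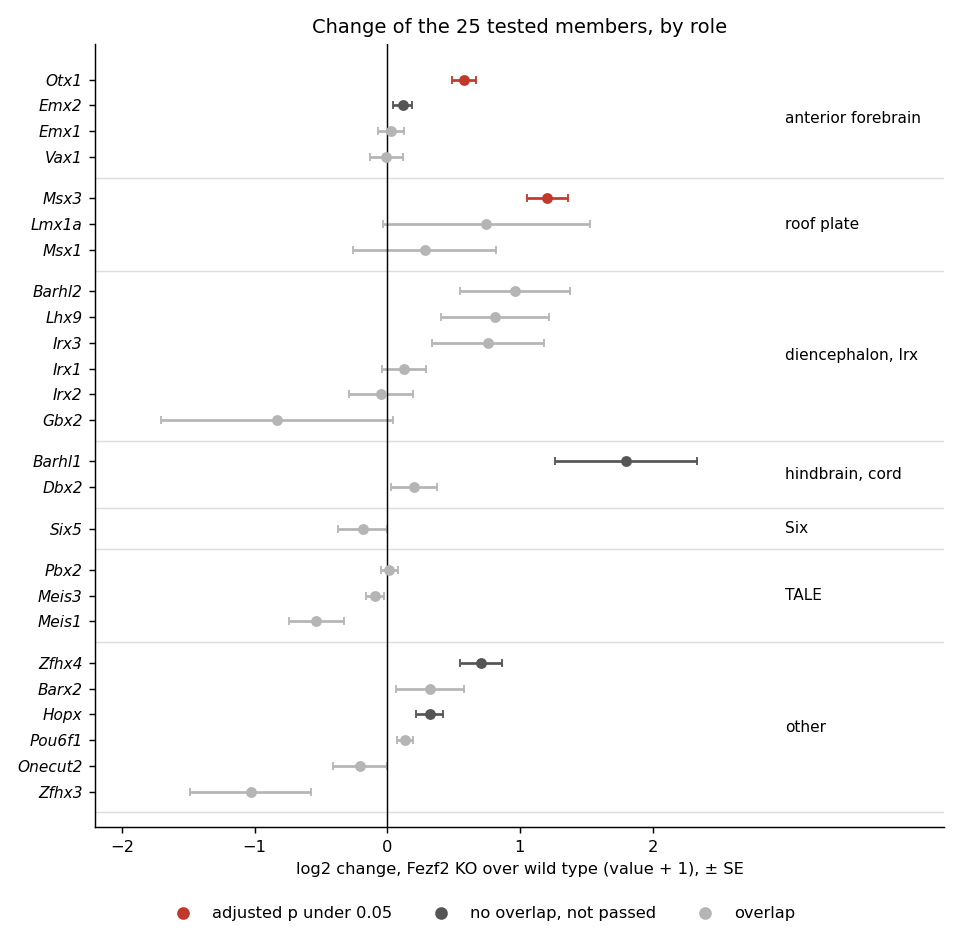
Log2 change of Fezf2 KO over wild type (x axis, on normalised reads plus 1) with its SE for the 25 tested members, grouped by role, with red for a limma adjusted p under 0.05, dark grey for genotypes that did not overlap but did not pass, and light grey for overlap. Msx3 (1.21) and Otx1 (0.58) are the members in red, and Barhl1 (1.80) lies farther right with an SE of 0.534.

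In 6 of the 25 tested members the genotypes did not overlap, each with Fezf2 KO above: Msx3, Otx1, Emx2, Zfhx4, Hopx and Barhl1. Over all entries tested, the genotypes did not overlap with Fezf2 KO above in 7.6% and with Fezf2 KO below in 6.85%. Barhl1 met the filter through the Fezf2 KO libraries alone and so had to differ, and the 6 are given as a description. An unadjusted p under 0.05 was found for 7 members, 6 higher (Barhl1 among them) and 1 lower in Fezf2 KO cortex. Over all entries tested, the share was 4.66% higher and 4.37% lower, 9.03% in all.

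Zfhx4, which encodes a large protein with several zinc fingers and homeodomains, had 594, 523 and 382 normalised reads in Fezf2 KO libraries 1, 2 and 3, against 287, 318 and 295 in wild type libraries 1, 2 and 3. The lowest Fezf2 KO value, in litter m2, lay nearest to the wild type range. It did not pass limma (log2 0.71, SE 0.158, adjusted p = 0.119) or edgeR (0.118), whereas DESeq2 gave an adjusted p of 0.00233. Without Fezf2 KO 3 it passed limma (log2 0.89, adjusted p = 0.0363). With any other library left out it did not pass (limma adjusted p = 0.228 to 0.325), nor in litter m1 alone (0.135). Hopx, an atypical homeodomain protein that lacks DNA binding and marks some radial glia, had 439, 542 and 507 in the Fezf2 KO libraries, against 406, 409 and 373 in the wild type libraries (log2 0.32, SE 0.103, limma adjusted p = 0.334).

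Barhl1, a gene of hindbrain and cerebellar granule cell lineages, had 23, 16 and 16 reads in Fezf2 KO libraries 1, 2 and 3, against 1, 8 and 7 reads in wild type libraries 1, 2 and 3. The counts are low in all libraries, and the change did not pass (log2 1.80, SE 0.534, limma adjusted p = 0.282). Its paralog Barhl2, of the diencephalon and spinal interneurons, had 62.5, 186 and 109 normalised reads in the Fezf2 KO libraries, against 86.1, 49.7 and 38.7 in the wild type libraries. Fezf2 KO 1 lay within the wild type range (log2 0.96, SE 0.414, limma adjusted p = 0.542).

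The other diencephalic and Iroquois genes had low values. Of the 8 genes of this group 6 were tested and none passed limma; 1 (Barhl2) had an unadjusted p under 0.05, and edgeR and DESeq2 each passed 0. Gbx2, which marks the thalamus, had 2, 25 and 4 reads in the Fezf2 KO libraries, against 24, 16 and 4 reads in the wild type libraries. Lhx9, a LIM homeobox gene of the diencephalon, had 15, 37 and 27 reads in the Fezf2 KO libraries and 17, 15 and 9 in the wild type libraries. Fezf2 KO 2 was the highest Fezf2 KO library for both genes, and for Barhl2 as well. Of 8 thalamic markers, Olig3 had at most 3 reads everywhere and Tcf7l2 had 105, 113 and 125 normalised reads in Fezf2 KO libraries 1, 2 and 3, against 120, 112 and 123 in wild type libraries 1, 2 and 3. The 8 summed to 2736 to 3290 in Fezf2 KO cortex and 3442 to 3512 in wild type cortex. In limma 1 marker rose, Slc17a6, with means of 961 in Fezf2 KO cortex and 664 in wild type cortex (adjusted p = 0.0276). Another 1 fell, Foxp2, also a gene of corticothalamic neurons, with means of 379 and 1236 (limma adjusted p = 0.00594). The lower Fezf2 KO sums rest on Foxp2. Irx1 averaged 105 ± 14.7 in Fezf2 KO cortex and 96.1 ± 12.8 in wild type cortex (SD, n = 3 each), Irx2 26.2 ± 5.12 and 27.0 ± 5.02, and Irx3 23.5 ± 3.57 and 15.4 ± 11.0. The wild type spread of Irx3 came from wild type 1, with 30 reads, against 10 and 11 in wild type 2 and 3. Irx5 had 2 to 5 reads per library and Pou4f1, a POU gene of the habenula and sensory neurons, had 3 to 11, and neither was tested.

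Genes of the midbrain, hindbrain and spinal cord made up most of the members near zero. En1 and En2, which define the midbrain-hindbrain boundary, had 1 to 6 and 5 to 14 reads per library. Pitx3, of midbrain dopamine neurons and the lens, had 0 to 3. Phox2a, of noradrenergic neurons, had 4 to 9 reads, Tlx3, of dorsal spinal and hindbrain neurons, had 0 to 4, and Nkx6-1, of the ventral neural tube, had 0 to 6. Dbx1, a progenitor gene of spinal interneurons, had 2 to 11 reads and Gbx1, of the dorsal spinal cord, had 1 to 7. Tlx1, Lhx3, Lhx4, Pitx3 and Six6 had at most 3 reads in every library, which is the limit that a count of 0 allows. No fold change is given for these, and depth limits what can be said of the others.

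In all, 20 of the 44 members (45.5%) had a wild type mean below 10 normalised reads, against 23.7% of all entries. Of these, 18 were also below 10 in Fezf2 KO cortex, and 2 (Barhl1 and Lmx1a) were not. The remaining members had wild type means of 10 to 100 (10 members), 100 to 1000 (9 members) and 1000 or more (5 members: Pou6f1, Emx1, Meis3, Pbx2 and Otx1). The group of hindbrain, spinal cord and sensory or autonomic genes held 1 well-expressed member. It was Dbx2, a relative of Dbx1, with 171, 180 and 246 normalised reads in the Fezf2 KO libraries and 146, 195 and 172 in the wild type libraries (log2 0.20, SE 0.174, limma adjusted p = 0.846). Of 10 markers of midbrain, hindbrain and spinal cord with a row, 4 had at most 3 reads in every library, and the 10 summed to 122 to 135 in Fezf2 KO cortex and 218 to 309 in wild type cortex. Most of that difference lay in Slc6a4, the serotonin transporter, which thalamic axons also use in newborn rodents, with 70.6, 53.0 and 70.7 normalised reads in the Fezf2 KO libraries, against 154, 125 and 231 in the wild type libraries. Slc6a4 did not pass limma (log2 -1.34, SE 0.238, adjusted p = 0.0562) or edgeR (0.0600), and passed DESeq2 (0.000121) and limma with litter as a block (0.0340). Of the 4 tested, Tph2 and Th also had lower means in Fezf2 KO cortex and did not pass limma. Tph2 averaged 22.8 in Fezf2 KO cortex and 35.7 in wild type cortex (limma adjusted p = 0.402), and Th 17.8 and 34.7 (0.546). Slc6a3, the dopamine transporter, went the other way, with a mean of 16.7 in Fezf2 KO cortex and 13.0 in wild type cortex. Among the untested, Chat had 2, 3 and 1 reads in the Fezf2 KO libraries, against 8, 6 and 5 in the wild type libraries. Hoxb4 had 1, 6 and 3 reads, against 0, 0 and 3.

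**Figure D3:**
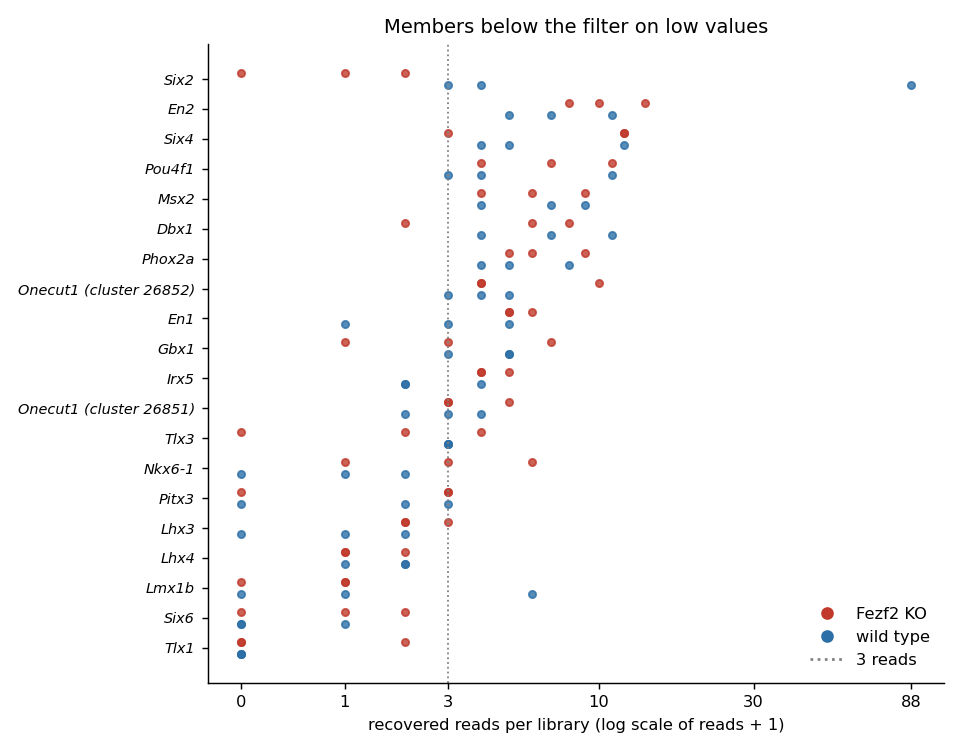
Recovered reads per library (x axis, log scale of reads plus 1) of the 19 members below the filter on low values, with 2 rows for Onecut1, red for Fezf2 KO, blue for wild type and a dotted line at 3 reads. All points lie at 14 reads or fewer except Six2 in wild type 1, at 88.

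Six2, a gene of kidney progenitors and head mesenchyme, had 0, 1 and 2 reads in the Fezf2 KO libraries, against 88, 4 and 3 reads in the wild type libraries. The single high library was wild type 1, which also held the highest value of each of the 12 meningeal markers, such as Slc6a13 at 361 normalised reads, against 4.87 or fewer in every other library. Its wild type mean of 29.5 thus rested on 1 library, and the part of meningeal tissue was not tested. Six4 had 12, 12 and 3 reads in the Fezf2 KO libraries and 12, 4 and 5 in the wild type libraries. Six5, expressed in many tissues, averaged 158 ± 34.3 in Fezf2 KO cortex and 178 ± 23.4 in wild type cortex (SD, n = 3 each, with log2 -0.18, SE 0.185, limma adjusted p = 0.884). A transcript named linc-Six5-AS had higher values, 331 ± 12.5 in Fezf2 KO cortex and 324 ± 14.9 in wild type cortex (SD, n = 3 each). The origin of the Six5 reads is therefore uncertain.

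Among the TALE cofactors, which form complexes with other homeodomain proteins, 0 of 3 passed limma (1 at an unadjusted p under 0.05, 0 by edgeR and 0 by DESeq2). Meis1 had 231, 402 and 240 normalised reads in Fezf2 KO libraries 1, 2 and 3, against 456, 387 and 385 in wild type libraries 1, 2 and 3 (log2 -0.53, SE 0.206, limma adjusted p = 0.474). Fezf2 KO 2 lay within the wild type range, and the other Fezf2 KO libraries lay below it. Zfhx3, a zinc finger homeodomain gene named after its values were seen, also had Fezf2 KO 2 within the wild type range and the other Fezf2 KO libraries below it, with 80.4, 322 and 98.9 in the Fezf2 KO libraries, against 344, 264 and 244 in the wild type libraries (log2 -1.03, SE 0.457, limma adjusted p = 0.563). Leaving out Fezf2 KO 2, the highest Fezf2 KO library for both genes, had to widen the difference. Both then passed limma, Meis1 with a log2 change of -0.79 (adjusted p = 0.0450) and Zfhx3 with -1.64 (adjusted p = 0.0145). With any other library left out neither passed, with limma adjusted p of 0.592 to 0.813 for Meis1 and 0.660 to 0.865 for Zfhx3.

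The striatal markers were low in the same Fezf2 KO libraries: for 10 of the 12, Fezf2 KO 1 and 3 both lay below the other 4 libraries. With all libraries, 0 of the 12 striatal markers passed limma (10 at an unadjusted p under 0.05, 0 by edgeR and 1, Penk, by DESeq2), and the part of striatal tissue in the values of Meis1 and Zfhx3 was not tested. Meis3 had 3424, 3782 and 3586 in the Fezf2 KO libraries, against 3956, 3530 and 4049 in the wild type libraries (log2 -0.09, SE 0.068, limma adjusted p = 0.784). A transcript named linc-Meis3-AS had values nearly as high, 3003 ± 167 in Fezf2 KO cortex and 3262 ± 251 in wild type cortex (SD, n = 3 each), so the origin of the Meis3 reads is uncertain. Pbx2 averaged 2553 ± 142 in Fezf2 KO cortex and 2525 ± 109 in wild type cortex (SD, n = 3 each; log2 0.02, SE 0.063, limma adjusted p = 0.983).

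**Figure D4:**
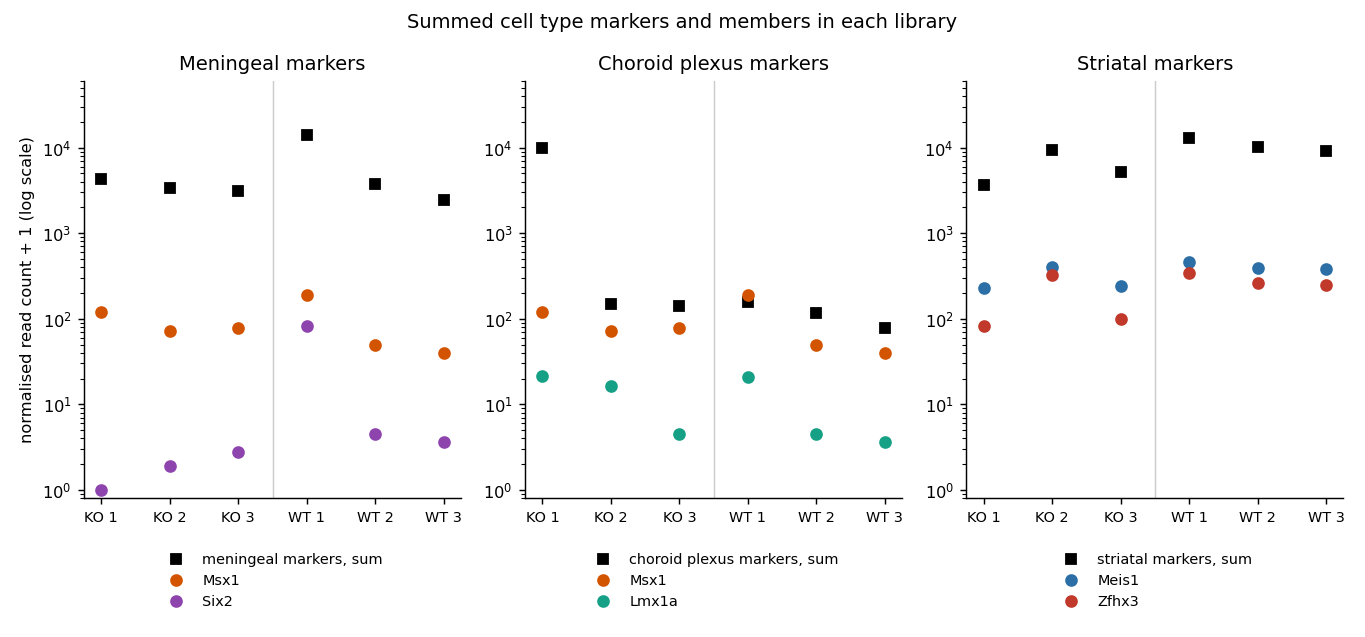
Normalised read counts plus 1 (y axis, log scale) in each library, with Fezf2 KO 1 to 3 left of wild type 1 to 3, for the summed markers of meninges, choroid plexus and striatal neurons (squares) and for members (circles). Six2 and Msx1 are highest in wild type 1, as the meningeal sum is (13868), and Meis1 and Zfhx3 are lowest in Fezf2 KO 1 and 3, as the striatal sum is (3659 and 5257).

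Of the remaining members, Pou6f1, Barx2 and Onecut2 did not pass limma, and Onecut1 was not tested. Pou6f1 had 15954, 14837 and 16113 normalised reads in the Fezf2 KO libraries, against 13616, 15404 and 13696 in the wild type libraries (log2 0.14, SE 0.059, limma adjusted p = 0.556). Barx2, of muscle and epithelia, averaged 109 ± 30.1 in Fezf2 KO cortex and 85.6 ± 19.1 in wild type cortex (SD, n = 3 each), and Onecut2, of liver and motor neurons, had 22.7, 20.7 and 24.7 in the Fezf2 KO libraries, against 23.4, 27.9 and 27.5 in the wild type libraries. The 2 Onecut1 entries had 4 to 10 and 3 to 5 reads in Fezf2 KO cortex and 3 to 5 and 2 to 4 reads in wild type cortex.

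The table also held 20 noncoding transcripts whose names carry a member's symbol, and they were looked up after the values were seen. Of the 12 entries tested, which are 11 distinct transcripts since 2 hold identical values, 1 rose and 0 fell in limma (3 higher and 0 lower at an unadjusted p under 0.05, 1 higher by edgeR and 1 by DESeq2). The transcript that rose was linc-Otx1-BP, with 261, 239 and 239 normalised reads in the Fezf2 KO libraries, against 135, 131 and 113 in the wild type libraries. The genotypes did not overlap (log2 0.96, SE 0.119, limma adjusted p = 0.0111). Whether its reads and those of Otx1 overlap is not stated. Its call was lost without Fezf2 KO 3 (limma adjusted p = 0.0570), and its limma adjusted p without both wild type 1 and Fezf2 KO 1 was 0.0764. The suffix BP is not explained in the files.

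The entry linc-Zfhx4-BP had 73.1, 63.8 and 56.5 normalised reads in the Fezf2 KO libraries, against 29.9, 27.1 and 44.7 in the wild type libraries (log2 0.93, SE 0.228, limma adjusted p = 0.165). A second transcript of that name, linc-Zfhx4, averaged 111 ± 19.4 in Fezf2 KO cortex and 108 ± 5.95 in wild type cortex (SD, n = 3 each). The entry linc-Dbx2-BP had 58.5, 46.7 and 53.9 in the Fezf2 KO libraries, against 19.7, 34.9 and 31.8 in the wild type libraries (log2 0.89, SE 0.247, limma adjusted p = 0.239). The entries Emx2os and linc-Emx2-BP held identical values, 72.0 ± 11.1 in Fezf2 KO cortex and 51.6 ± 13.8 in wild type cortex (SD, n = 3 each), so they count as 1 locus.

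**Figure D5:**
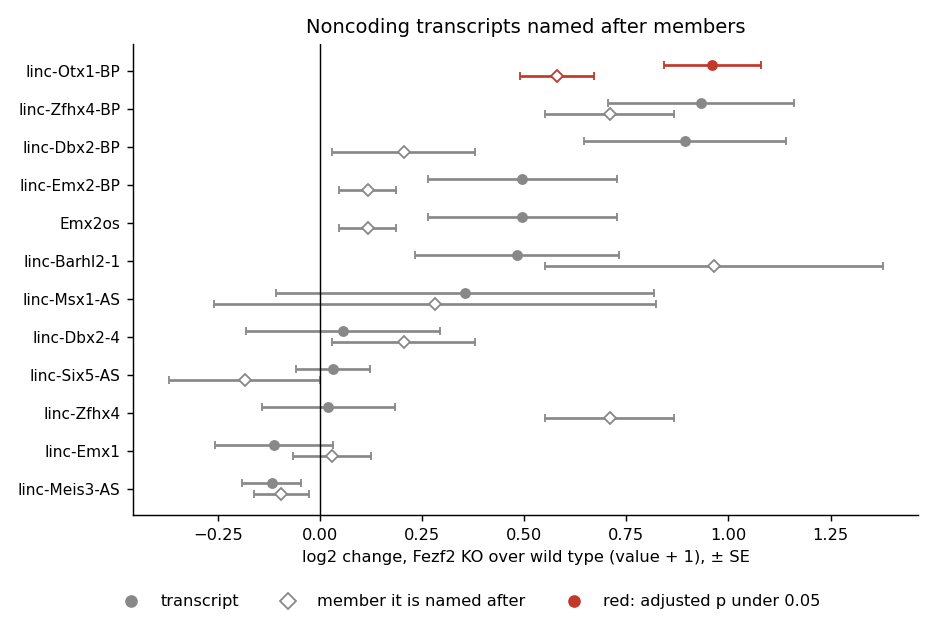
Log2 change of Fezf2 KO over wild type (x axis, on normalised reads plus 1) with its SE for the 12 tested noncoding entries named after members (filled circles) and for the member each is named after (open diamonds), with red for a limma adjusted p under 0.05. Both linc-Otx1-BP (0.96) and Otx1 (0.58) are red, and linc-Zfhx4-BP (0.93) and Zfhx4 (0.71) are grey.

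The other homeobox genes gave the setting for these values. Of 163 further homeobox genes listed, 116 had a row, in 118 entries, and 64 entries were tested. In limma 1 rose and 0 fell (10 higher and 6 lower at an unadjusted p under 0.05; 1 higher and 0 lower by edgeR; 4 higher and 1 lower by DESeq2). The gene that rose was Pax7, a paired homeobox gene of the dorsal neural tube and midbrain, with 293, 284 and 339 normalised reads in the Fezf2 KO libraries, against 1.87, 1.75 and 0 in the wild type libraries (fitted log2 7.26, SE 0.401, limma adjusted p = 0.00015). Pax7 met the filter through the Fezf2 KO libraries alone and so had to differ, and with at most 2 reads in a wild type library the size of its change depends on the 1 added before the log. Of 12 Hox cluster genes with a row, which pattern the hindbrain and spinal cord, 0 passed the filter and 10 had at most 3 reads in every library.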

How the data were processed

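Total RNA of 6 newborn mouse cortices was made into TruSeq libraries, per the labels' protocols, and read on an Illumina Genome Analyzer II. Bowtie, STAR, DESeq and build mm9 are named in the submitters' processing notes, without versions. The deposited signal is each gene's reads divided by a size factor of its library and rounded, and it is not scaled to gene length. Every value was a whole multiple of the value of 1 read (0.812 to 0.936) within 0.006, so whole reads were recovered for 100% of values. A count of 0 allows up to 3 reads, which covers counting error only.

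Entries with at least 10 normalised reads in at least 3 libraries were tested with limma 3.58.1 (R 4.3.3) on log2(value + 1), with a trended variance, genotype as the single term and Benjamini-Hochberg adjustment over 17557 entries at 0.05. Since the values are not raw counts, edgeR's quasi-likelihood test was not the main test, and edgeR 4.0.16 and DESeq2 1.42.0 were run on the recovered reads as alternatives. Steps were tested on simulated data. Figures were drawn with matplotlib 3.10.9 and tables made with pandas 2.3.3 and numpy 2.4.6 under Python 3.11.15.

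Other alternatives were a pseudocount of 0.5, no filter, litter as a block, litter m1 alone, and each library left out. The labels give the litter. Deviations from the genotype mean correlated at -0.14 to 0.22 between genotypes within a litter and at -0.16 to -0.04 across litters (17557 entries).

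The members, the lists and the tests were chosen with earlier results of these data known. Members named in full passed the test, had an unadjusted p under 0.05 or no overlap, or were the 2 highest tested members of their role group. Genes of the other homeobox list were named where they passed. Exon lengths came from GENCODE vM21, matched by symbol for 44 members, and served for levels per kilobase only. Replicates are separate pups.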

Additional observations from a re-analysis of the deposited data

How the results depend on the processing

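The number of members called higher in Fezf2 KO cortex was 2 with a pseudocount of 0.5, with no filter, by edgeR with TMM or RLE factors and with litter as a replicate block, and 3 by DESeq2 (Zfhx4 added). It was 0 in litter m1 alone and 1 (Msx3) without both wild type 1 and Fezf2 KO 1, a setting chosen after seeing the data. With each library left out in turn it lay between 0 and 2, and the number of members called lower lay between 0 and 2 (Meis1 and Zfhx3, without Fezf2 KO 2). Other homeobox genes called higher were 1 with any library left out and 4 by DESeq2 (Pax7, Lhx6 and 2 entries of Zeb2). Those called lower were 0 to 2 with a library left out (Meis2 and Six3, without Fezf2 KO 2) and 1 (Meis2) by DESeq2. All genes called numbered 125 in limma, 138 with litter as a block, 403 by DESeq2, 29 in litter m1 alone, 57 without both libraries, and 61 to 119 with 1 library left out. Fewer libraries alone can lower these counts. Of the 18 named genes, 4 changed sign, none of them called. The log2 change of Msx1 was -0.051 by edgeR with TMM, -0.050 with RLE, -0.059 by DESeq2, -0.063 in litter m1 and -0.15 to 0.99 with a library left out. Emx1 had -0.050 to 0.13 with a library left out and -0.11 without both libraries, Pbx2 had -0.015 to 0.062 with a library left out, and Six5 had -0.32 to -0.00098 with a library left out and 0.090 without both. The cause was not tested. Litter as a block changed no call of a member. Of 252 pairs of a named gene and an alternative, 225 kept direction and side of the threshold.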

Other observations

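The values of Six3, Isl1 and Lhx8, homeobox genes of the striatum and ventral forebrain chosen after their values were seen, were uneven among the Fezf2 KO libraries. Some other homeobox genes of the ventral forebrain were more even. Gsx2 had 202, 191 and 185 normalised reads in Fezf2 KO cortex and 174, 157 and 202 in wild type cortex. Dlx2 had 5749, 5974 and 5690 in Fezf2 KO cortex and 5291, 4895 and 5209 in wild type cortex. The genotypes did not overlap for Dlx2, with Fezf2 KO above (log2 0.18, SE 0.050, limma adjusted p = 0.244). Dlx6 was uneven, with 256, 466 and 356 in Fezf2 KO libraries 1, 2 and 3. Its wild type values were 501, 469 and 419 (log2 -0.40, SE 0.199, limma adjusted p = 0.619). Six3, a gene of striatal and eye development, had 113, 327 and 118 normalised reads in Fezf2 KO libraries 1, 2 and 3, against 532, 422 and 343 in wild type libraries 1, 2 and 3 (log2 -1.37, SE 0.382, limma adjusted p = 0.243). For Six3 all Fezf2 KO libraries, Fezf2 KO 2 included, lay below all wild type libraries. Isl1, a LIM homeobox gene of striatal projection neurons, had 12.2, 195 and 77.7 in the Fezf2 KO libraries, against 288, 250 and 189 in the wild type libraries (log2 -2.03, SE 0.818, limma adjusted p = 0.496). Lhx8, which marks cholinergic neurons of the ventral forebrain, had 8.12, 43.1 and 7.06 in the Fezf2 KO libraries, against 77.7, 43.6 and 23.2 in the wild type libraries (log2 -1.57, SE 0.677, limma adjusted p = 0.546). Fezf2 KO 2 was the highest Fezf2 KO library for each of these 3 genes, as was the case for the summed striatal markers (9384, against 3659 and 5257 in Fezf2 KO 1 and 3), and Six3 and Isl1 are themselves in that list. The part of striatal tissue in these values was not tested.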
